A study of Sus scrofa with 6 samples.

Results

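KCNE1, KCNE3, GJA1 and GJA5 encode potassium channel accessory subunits and connexins of the atrium. These 4 genes, of 6765 with a single-symbol probe set on a porcine Affymetrix expression array, were measured by 7 of its 23999 probe sets that were not controls. A probe set was taken as theirs where the platform annotation gave 1 of the 4 names as its only symbol. KCNE1 had 3 probe sets, KCNE3 had 2, and GJA1 and GJA5 had 1 each. The animals were 6 male miniature pigs of the Lanyu breed aged 18 months, whose left atrial RNA was hybridised to 1 array each, with n = 2 in each group. MRV animals had mitral regurgitation, a backflow of blood into the atrium, after a hole of 2.8 mm was made in the middle of the posterior leaflet. They were given 3.43 mg/kg/day of valsartan, starting 1 week ahead of the operation. Valsartan blocks the type I angiotensin II receptor. MR animals had the same lesion without valsartan, and MRV and MR animals were killed 12 months after surgery. NC animals were normal controls of the same age, and no operation is recorded for them, so the lesion and the surgery cannot be told apart in a comparison with NC.

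Heart muscle cells repolarise through potassium channels made of pore-forming alpha subunits and accessory subunits. Those of the KCNE family are small and span the membrane a single time. KCNE1 joins the alpha subunit KCNQ1 to form the slow delayed rectifier channel, and KCNE3 can join the same alpha subunit, best known from epithelia. Connexins pair up between neighbouring cells to form gap junctions, through which the action potential spreads. GJA1 encodes connexin Cx43, found in working muscle of atria and ventricles, and GJA5 encodes connexin Cx40, which in the heart is found in atrial muscle, in the ventricular conduction system and in arterial endothelium.

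The sample was checked against cell type markers first. The atrial muscle markers summed to 105530 and 102940 intensity units on the MRV arrays, 99604 and 104930 on the MR arrays and 100440 and 105130 on the NC arrays, over 6 of 8 markers with a probe set, and the groups overlapped. Single markers were not all alike. In MR against NC, 2 of the 6 were higher and 2 lower without overlap. SLN, the dimmest of the 6 and so a small part of the sum, was lowest on MR1. It read 8949 and 8530 units in MRV, 5369 and 9876.5 in MR, and 8660 and 10033 in NC. None of the 8 markers of pacemaker and conduction cells had a single-symbol probe set in the annotation used here, so those cells could not be checked. Array medians lay between 90.2 and 93.4 units. Across probe sets, which do not count as replicates, the arrays of a group correlated at r = 0.981 in MRV, r = 0.980 in MR and r = 0.958 in NC. Arrays of different groups correlated at r = 0.954 (NC1 and MRV2) to r = 0.983 (NC2 and MRV2), so the arrays did not sort by group. NC2 correlated more with every MR and MRV array than with NC1. The actin control probe sets gave a 3' to 5' ratio, a measure that is higher in degraded RNA, of 2.30 and 1.87 in MRV, 1.44 and 1.70 in MR, and 1.61 and 1.91 in NC. The same ratio of the GAPDH control probe sets was 1.53 and 1.55 in MRV, 1.53 and 1.57 in MR, and 1.57 and 1.59 in NC. Because whole tissue was used, fewer cells of a type and less RNA per cell cannot be told apart.

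KCNE1 was the member that stood farthest apart. Its brightest probe set read 278.5 and 505 units in MRV, 653 and 726 in MR, and 264 and 318 in NC. MR arrays read above every MRV and every NC array, while MRV1 lay inside the NC range and MRV2 above it. Group means were 392 ± 160.1 in MRV, 689.7 ± 51.9 in MR and 291 ± 37.9 in NC (SD, n = 2 each). The order of means was MR, MRV, NC, and MRV and NC did not differ beyond their overlap.

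KCNE3 had a lower signal. Its brighter probe set read 108 and 100.7 units in MRV, 106 and 146 in MR, and 70.8 and 91.3 in NC. Lesioned animals with and without valsartan read above both NC animals, and MR and MRV overlapped. The means were 104.5 ± 5.37 in MRV, 126 ± 28.7 in MR and 81.1 ± 14.5 in NC (SD, n = 2 each).

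GJA1 was bright in every animal. Its probe set read 6940 and 5738 units in MRV, 4827 and 5434 in MR, and 6088 and 5378 in NC, which placed it above at least 98.9% of all probe sets on each array. MRV arrays read above both MR arrays, and NC overlapped with each of the other groups. Group means were 6339 ± 849 in MRV, 5130.1 ± 429 in MR and 5733 ± 502 in NC (SD, n = 2 each).

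GJA5 varied most among the untreated lesioned animals. Its probe set read 268 and 291 units in MRV, 320.5 and 584 in MR, and 438 and 345 in NC. The MRV animals read below all 4 others. MR1 lay below the NC range and MR2 above it, so MR and NC overlapped. Group means were 279.7 ± 16.5 in MRV, 452 ± 186 in MR and 392 ± 65.5 in NC (SD, n = 2 each).

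**Figure D1:**
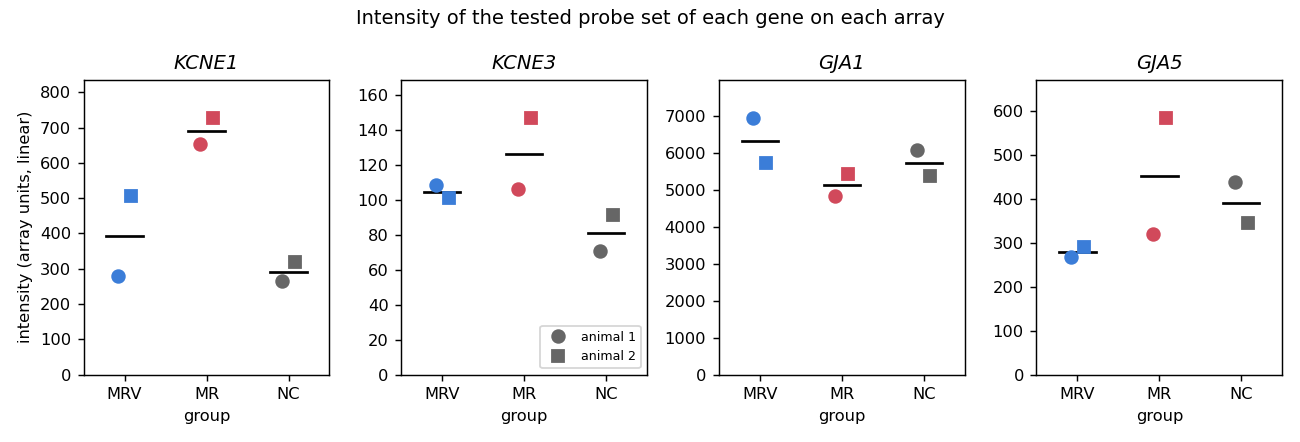
Intensity of the tested probe set of KCNE1, KCNE3, GJA1 and GJA5 (y axis, linear array units from 0) in MRV, MR and NC animals (x axis). Each circle or square is 1 animal and each bar the mean of 2; both MR animals read highest for KCNE1, at 653 and 726, and both MRV animals read lowest for GJA5, at 268 and 291.

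The spread between the 2 animals of a group differed by gene. For KCNE1 the MRV animals lay 1.81-fold apart, a log2 gap of 0.82 that 1.69% of tested probe sets exceeded in that group, while the MR animals lay 1.11-fold and the NC animals 1.20-fold apart. For GJA5 it was the MR animals that lay far apart, at 1.82-fold, and 1.83% of tested probe sets had a wider gap in MR. The MRV animals lay 1.09-fold apart for GJA5. GJA1 gaps ran from 1.13-fold in MR and NC to 1.21-fold in MRV, and KCNE3 gaps from 1.08-fold in MRV to 1.38-fold in MR. The median log2 gap over all tested probe sets was 0.13 in MRV, 0.14 in MR and 0.18 in NC.

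The other probe sets of KCNE1 and KCNE3 gave another picture. The second KCNE1 probe set averaged 58.3 ± 10.1 units in MRV, 59.9 ± 0.21 in MR and 59.3 ± 5.73 in NC (SD, n = 2 each). The dimmest read 30.3 and 35.0 in MRV, 36.7 and 32.3 in MR, and 28.9 and 40.6 in NC. Neither separated the groups, and their log2 differences between MR and NC were 0.014 and 0.0012. The second KCNE3 probe set read 52.4 and 48.4 in MRV, 55.0 and 50.6 in MR, and 46.0 and 56.8 in NC, again with overlap of all groups. These 3 probe sets had means below the 40th percentile, 61.4 units, and so were not tested, which left 4 of the 7. The difference of KCNE1 and that of KCNE3 therefore each rest on a single probe set, and neither was seen in the dimmer ones.

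**Figure D2:**
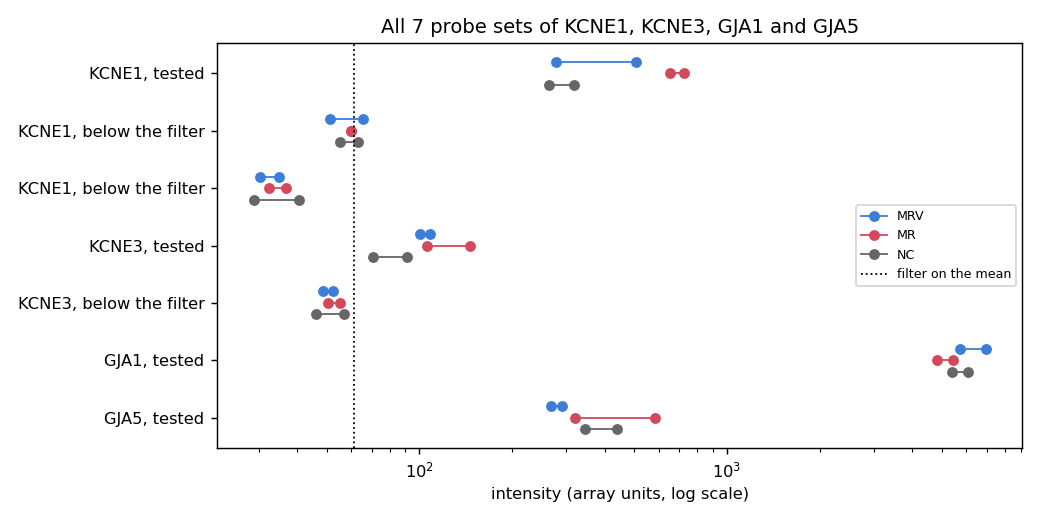
Intensity of all 7 probe sets (x axis, array units on a log scale), with 1 point per animal and a line joining the 2 animals of a group, MRV above MR above NC. The dotted line is the filter on the mean over 6 arrays, at 61.4 units; the 3 dim probe sets, from 28.9 to 65.4 units, show no separation of groups.

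The symbol of KCNE1 also has a limit. The annotation ties its 3 probe sets to Entrez gene 397331, a number that RefSeq's genes of assembly Sscrofa11.1, as used here, do not include. They give KCNE1 as gene 100621502. The name KCNE1 thus rests on the array annotation alone. KCNE3 (397168), GJA1 (100518636) and GJA5 (100157795) matched by gene number. No coordinates are given, since the annotation names no genome build.

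The comparison of MR with NC addressed how regurgitation, with the surgery behind it, relates to atrial RNA. KCNE1 and KCNE3 were picked for their values in this comparison, so their differences are given as a description without a test. KCNE1 averaged 2.37-fold higher in MR, with pairs of 1 MR and 1 NC animal from 2.05-fold to 2.75-fold, and its log2 difference was 1.20 (moderated SE 0.27). All log2 differences here are of log2(intensity + 16), which understates changes of dim probe sets, and come from limma fitted on all 14400 tested probe sets. KCNE3 averaged 1.56-fold higher in MR, with pairs from 1.16-fold to 2.07-fold and a log2 difference of 0.54 (SE 0.18), which was 0.34 without MR2. With each gene's probe sets averaged, dim ones included, the differences were 0.41 for KCNE1 and 0.29 for KCNE3. Larger absolute log2 differences were found for 32 tested probe sets in the case of KCNE1 and for 380 in the case of KCNE3.

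The connexins did not differ between MR and NC beyond the spread between animals. GJA1 had a log2 difference of -0.16 (SE 0.14, 95% interval -0.52 to 0.20, limma adjusted p = 0.99996). It was -0.074 without MR1, -0.24 without MR2, -0.070 without NC1, -0.25 without NC2, and -0.098 with the log2 ratio of actin signals as a covariate, a setting chosen after seeing the data. GJA5 had one of 0.15 (SE 0.28, interval -0.55 to 0.85, limma adjusted p = 0.99996), and its sign turned without MR2 (-0.27) and without NC2 (-0.015), while it was 0.57 without MR1 and 0.31 without NC1. The interval of GJA5 holds sizeable differences in either direction. Intervals are not adjusted for the number of probe sets. Among the 4 tested members, KCNE1 and KCNE3 were higher without overlap, beside 14.3% of all tested probe sets, and nothing is read from that count because both were chosen on it. At least 2-fold apart in means and without overlap were 0.222% of tested probe sets on the higher side, KCNE1 among them. KCNE1 was chosen on these values, so nothing is read from its place there either. The limma fit called 0.00694% of tested probe sets, which was 1 probe set, of ASNS, and neither connexin.

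The comparison of MRV with MR addressed what accompanies valsartan in lesioned animals. It shares the MR arrays with the comparison above, so a gene that reads high in MR tends to have opposite signs in both. KCNE1 and KCNE3, chosen on those arrays, are therefore described here without a test, and likewise in MRV minus NC, which shares the NC arrays. KCNE1 averaged 0.568 of the MR mean in MRV, with pairs of animals from 0.383 to 0.773. Its log2 difference was -0.85 (SE 0.27). The difference was -1.26 without MRV2, -0.44 without MRV1 and -0.56 with the actin covariate. KCNE3 had a log2 difference of -0.22 (SE 0.18). It was -0.016 without MR2, -0.43 without MR1 and -0.61 with the actin covariate. With each gene's probe sets averaged, KCNE1 differed by -0.31 and KCNE3 by -0.14.

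The connexins had opposite signs to each other in MRV minus MR. GJA1 averaged 1.24-fold higher in MRV, with a log2 difference of 0.30 (SE 0.14, 95% interval -0.056 to 0.66, limma adjusted p = 0.727). GJA5 averaged 0.618 of the MR mean in MRV, with a log2 difference of -0.61 (SE 0.28, interval -1.30 to 0.093, limma adjusted p = 0.715). The GJA5 difference was -0.19 without MR2 and -1.02 without MR1. GJA1 differed by 0.16 without MRV1, by 0.44 without MRV2 and by 0.15 with the actin covariate. Neither connexin passed the threshold, and 0.0% of all tested probe sets did, while 1048 had an unadjusted limma p under 0.05.

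Of the 4 tested members, GJA1 was higher in MRV than in MR without overlap, and KCNE1 and GJA5 were lower without overlap. Over all tested probe sets, 18.8% were higher and 23.6% lower without overlap. Nothing is read from the place of KCNE1 in that count, since the MR arrays served to choose it. KCNE1 and GJA5 thus shared a direction here, and the arrays behind it differed. KCNE1 was high on both MR arrays, and GJA5 was high on MR2 only.

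The comparison of MRV with NC set treated lesioned animals beside normal ones. KCNE1 had a log2 difference of 0.36 (SE 0.27), and its value was 0.77 without MRV1, -0.055 without MRV2 and 0.23 without NC1. KCNE3 averaged 1.29-fold higher in MRV without overlap, with a log2 difference of 0.32 (SE 0.18) that was 0.17 without NC1 and 0.087 with the actin covariate. With probe sets averaged, these differences were 0.093 for KCNE1 and 0.15 for KCNE3. GJA1 differed by 0.14 (SE 0.14, 95% interval -0.22 to 0.50, limma adjusted p = 0.931). Without 1 array it was 0.0040 (MRV1), 0.28 (MRV2), 0.23 (NC1) or 0.052 (NC2), and it was 0.049 with the actin covariate. GJA5 averaged 0.714 of the NC mean in MRV without overlap, with a log2 difference of -0.46 (SE 0.28, interval -1.15 to 0.24, limma adjusted p = 0.906) that was -0.29 without NC1. Among tested probe sets 15.0% were higher and 18.1% lower without overlap, and 0.0% were called by limma, with 762 at an unadjusted p under 0.05.

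**Figure D3:**
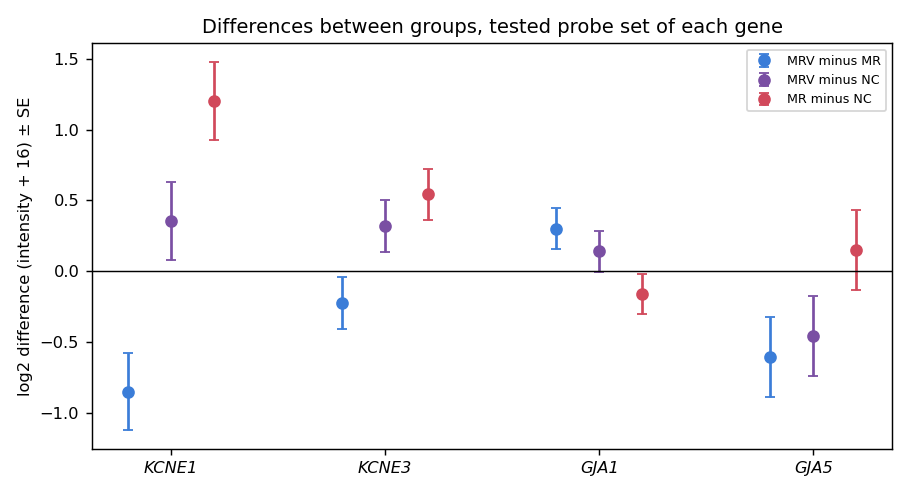
Log2 differences of intensity + 16 (y axis) with moderated SE for the tested probe set of each gene (x axis) in MRV minus MR, MRV minus NC and MR minus NC, n = 2 animals per group. The largest in size is that of KCNE1 in MR minus NC at 1.20, and the comparisons share arrays.

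**Figure D4:**
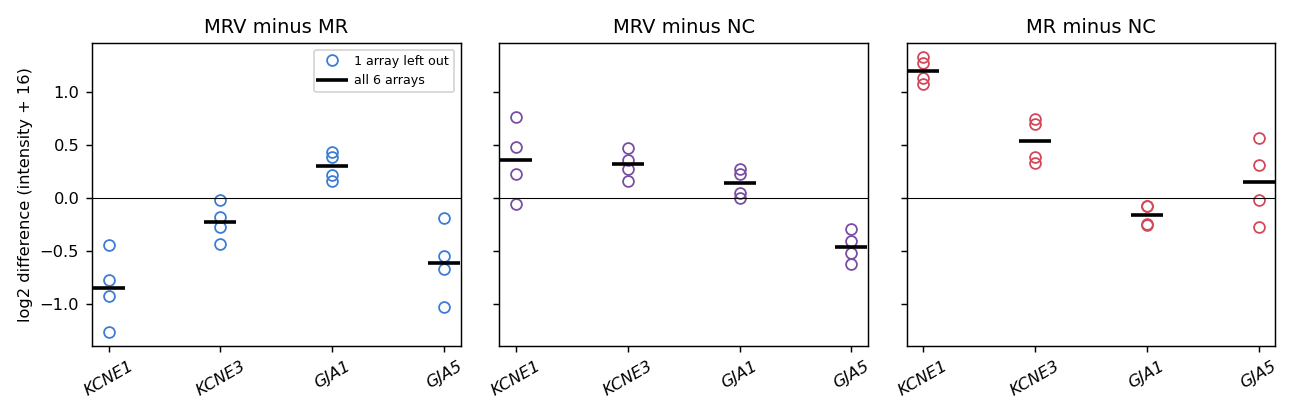
Log2 differences of intensity + 16 (y axis) for the 4 genes (x axis) with all 6 arrays (bar) and with each array of the comparison left out in turn (open circles), 1 panel per comparison. KCNE1 in MR minus NC ran from 1.08 to 1.33, and GJA5 in MR minus NC ran from -0.27 to 0.57. KCNE1 was chosen on MR minus NC, so its range there is not read as support.

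The rest of the channel was looked at next, by lists of genes. Among accessory subunits of potassium channels, 8 of 21 listed genes had a probe set with a single symbol and 5 were tested. Their log2 differences in MR minus NC had a median of 0.16, and 5 of 5 were above 0. Over all 5408 tested genes the median was 0.0076, and 2843 were above 0. KCNE1 and KCNE3, chosen on this comparison, are among the 5, and KCNE4, KCNIP2 and KCNMB1 overlapped between MR and NC. KCNMB1 also had a second tested probe set with the opposite sign in MR minus NC (-0.10) and in MRV minus MR (-0.093). KCNE4, an accessory subunit that dampens several voltage-gated channels, read 88.4 and 118 units in MRV, 112 and 100.2 in MR, and 93.9 and 109.7 in NC. KCNE2, another member of the family, was below the filter with both of its probe sets. In MRV minus MR the median was -0.21 (0.026 without MR1) and 1 of 5 genes was above 0, and 0 of the 5 were called in any of the 3 comparisons.

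KCNQ1 is the alpha subunit that KCNE1 joins. Its brightest probe set read 124 and 125 units in MRV, 113 and 83.9 in MR, and 93.2 and 120.2 in NC. MRV read above MR without overlap, by 0.31 on the log2 scale (SE 0.17, limma adjusted p = 0.757), and its second tested probe set differed by 0.10. MR and NC overlapped, with log2 differences of -0.10 and 0.022 for these probe sets. KCNH2, the alpha subunit of the rapid delayed rectifier, read 98.9 and 106 in MRV, 99.6 and 89.7 in MR, and 93.9 and 102.9 in NC. Of 32 voltage-gated alpha subunit genes listed, 6 had a probe set with a single symbol and 3 were tested, with medians of -0.048 in MR minus NC and 0.10 in MRV minus MR, and 0 called. The first of these was 0.057 without NC2 and 0.082 without MR2.

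Of 32 genes of inward rectifier, other leak and calcium-activated potassium channels, 8 had a probe set and 2 were tested. KCNJ5, a subunit of the acetylcholine-gated channel of the atrium, read 5672 and 4917 units in MRV, 4025 and 5113 in MR, and 4687 and 5762 in NC, with overlap of all groups. Its partner KCNJ3 read between 46.8 and 60.8 on its brighter probe set, and KCNJ2, the inward rectifier of the resting potential, between 11.6 and 14.5, both below the filter. None of the 2 tested genes was called.

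Genes known to regulate the channel of KCNQ1 and KCNE1 were counted next, and 12 of 22 were tested. Their median was -0.079 in MR minus NC and -0.011 in MRV minus MR, with 0 called. It turned above 0 in MR minus NC without NC1 (0.022) or NC2 (0.0086), and in MRV minus MR without MRV2 (0.046) or MR1 (0.0019) and with quantile normalization (0.035). PRKACB, a catalytic subunit of protein kinase A, read 1308 and 1259 units in MRV, 709 and 673 in MR, and 1359 and 701 in NC. MRV read above MR without overlap (log2 difference 0.88, SE 0.29, limma adjusted p = 0.629), and NC1 read near the MRV values and NC2 near the MR values. PRKAR2A, a regulatory subunit of that kinase, read 142.5 and 178 in MRV, 122 and 111 in MR, and 126 and 173 in NC. PPP1CA, a catalytic subunit of protein phosphatase 1, read 173 on MR1 and from 57.2 to 68.1 on the other arrays. CALM3, a calmodulin gene, had a log2 difference of -0.083 in MRV minus MR (limma adjusted p = 0.892).

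Among connexins and pannexins, 5 of 24 listed genes had a probe set with a single symbol and 4 were tested. Besides GJA1 and GJA5 these were GJA4, the connexin of arterial endothelium, and GJB5. GJA4 read 245 and 287 units in MRV, 281 and 341 in MR, and 286 and 252 in NC. As with GJA5, the highest GJA4 value was that of MR2, although the GJA4 groups overlapped in all comparisons. GJB5 ranged from 58.3 to 73.6 units. The median of the 4 log2 differences was 0.070 in MR minus NC and -0.065 in MRV minus MR, and 0 were called. It was -0.091 without MR2 and -0.010 without NC2 in MR minus NC, and 0.010 with the actin covariate in MRV minus MR.

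At the intercalated disc, the end-to-end contact of heart muscle cells where gap junctions lie, 11 of 28 listed genes were tested. The log2 differences had a median of -0.10 in MR minus NC and -0.17 in MRV minus MR, with 0 called. The first median was 0.024 without MR2, and the second was 0.079 with probe sets averaged, 0.019 with the actin covariate and -0.016 without MR1, so neither held its sign throughout. XIRP2, an actin-binding protein of the disc, had the widest range. It read 1499 and 1175 units in MRV, 3218 and 2400 in MR, and 467 and 1587 in NC, with MR above both other groups without overlap. Its log2 difference was 1.67 in MR minus NC (SE 0.54, limma adjusted p = 0.99996) and -1.06 in MRV minus MR (SE 0.54, limma adjusted p = 0.743). Its relative XIRP1 read 1090 and 1132 in MRV, 1428 and 1557 in MR, and 1782 and 1915 in NC. XIRP1 was lower in MR than in NC and lower again in MRV, without overlap. Its log2 difference was -0.31 in MR minus NC (SE 0.11, limma adjusted p = 0.99996) and -0.42 in MRV minus MR (SE 0.11, limma adjusted p = 0.554). ANK3, an ankyrin that anchors membrane channels, read 128 and 159 in MRV, 120.5 and 104 in MR, and 115 and 153 in NC. TJP1, which binds the tail of Cx43, read from 15.9 to 29.2 units and was not tested.

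Of 32 sodium, calcium and pacemaker channel genes, 5 had a probe set and 3 were tested, with 0 called. CACNA2D1, an auxiliary subunit of calcium channels, read 219 and 220.3 units in MRV, 61.0 and 183 in MR, and 61.5 and 337 in NC. MRV read above MR without overlap (log2 difference 0.93, limma adjusted p = 0.816), and the NC animals spanned nearly the whole range. Of 30 transcription factors of atrial identity and conduction, 11 were tested and 0 called. PRRX1 read 213 and 298 in MRV, 129 and 118 in MR, and 86.6 and 179.5 in NC. GATA4 read 616.5 and 585 in MRV, 697 and 637 in MR, and 612 and 572 in NC, higher in MR than in both other groups without overlap. The log2 difference in MR minus NC was 0.17 (limma adjusted p = 0.99996). On the second tested GATA4 probe set, MR (85.1 and 62.1) overlapped with MRV (70.0 and 71.8) and NC (62.8 and 59.1). NR2F2, a factor of atrial identity, read 805 and 671 in MRV, 697 and 612 in MR, and 585 and 568 in NC.

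Over the 50 tested genes of the 8 lists, 28% did not overlap in MR minus NC, 38% in MRV minus MR and 26% in MRV minus NC. Over all 5408 tested genes the shares were 28.2% in MR minus NC, 43.7% in MRV minus MR and 35.1% in MRV minus NC.

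**Figure D5:**
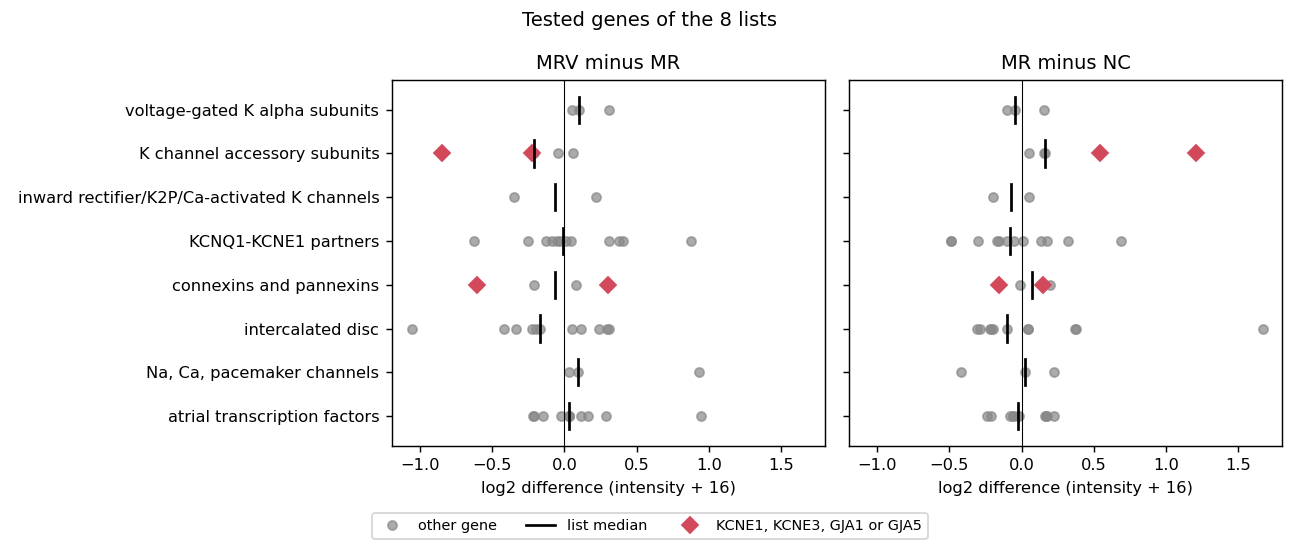
Log2 differences of intensity + 16 (x axis) of every tested gene of the 8 lists (rows), in MRV minus MR (left) and MR minus NC (right). Each point is 1 gene, diamonds are KCNE1, KCNE3, GJA1 and GJA5 and vertical bars are list medians; KCNE1 at 1.20 and XIRP2 at 1.67 lie farthest out in MR minus NC.

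Markers of other cells were set beside the members. The ventricular muscle markers summed to 29944 and 29846 units in MRV, 42413 and 34386 in MR, and 29473 and 32029 in NC. Over these 4 of 5 markers, the MR sums were above both other groups without overlap, as KCNE1 was. Singly, MYL2 and MYL3 were higher in MR without overlap, while MYH7 and HEY2 overlapped. The defining marker of ventricular muscle, MYL2, a regulatory light chain of ventricular myosin, read 152 and 954 in MRV, 10693 and 2318 in MR, and 203 and 325 in NC. MYL2 was highest on MR1, while KCNE1 was highest on MR2. MRV2, the MRV array with more KCNE1 signal, was also that with more MYL2 signal. The part of these cells in the KCNE1 values was not tested.

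For GJA5, which endothelium also expresses, the endothelial markers summed to 3434 and 3853 units in MRV, 3710 and 4096 in MR, and 3860 and 3687 in NC, over 8 of 8 markers. The arterial endothelial markers summed to 482 and 537 in MRV, 461 and 669.8 in MR, and 459 and 496 in NC, over 4 of 7, GJA4 among them. On MR2, the array with the highest GJA5 value, these 2 sums were also the highest of the 6 arrays, and on MR1 they were not. The summed markers of smooth muscle, of adipocytes, of red blood cells and of Schwann cells and neurons were lower in MRV than in MR and lower in MRV than in NC without overlap, as GJA5 was. Single markers did not all follow. In MRV against MR, 4 of 7 tested smooth muscle markers and 3 of 4 of Schwann cells and neurons were lower without overlap. For adipocytes it was 0 of 6, with LIPE higher, and for red blood cells 1 of 2. Against NC it was 3 of 7 for smooth muscle, 1 of 4 for Schwann cells and neurons, 2 of 6 for adipocytes and 0 of 2 for red blood cells. For smooth muscle the sums were 12598 and 13988 in MRV, 15172 and 14676 in MR, and 15892 and 14131 in NC, over 7 of 8 markers. The largest part of each was DES, at 7703.3 and 8375.5 in MRV, 9230.7 and 8932.0 in MR, and 8865.7 and 8555.8 in NC. With DES taken off these sums, the MRV values stayed below the MR values without overlap. MRV and NC then overlapped, with MRV2 above NC2, so the separation of this list from NC rested on that marker. The sums for Schwann cells and neurons were 1108 and 1811 in MRV, 3015 and 2767 in MR, and 2006 and 2967 in NC. These covered 4 of 9 markers. Fibroblast, epicardial and leukocyte sums overlapped between all groups. Their part in the results on GJA5 and KCNE1 was not tested.

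The genes most like each member over the 6 arrays were found by Pearson correlation of log2(intensity + 16) among 5407 other genes. With 6 arrays in 3 groups and so many genes, high values are frequent, so these are descriptions without a p. For KCNE1 the first 5 were FBXO7 (r = 0.970), PPM1F (r = 0.968), GABARAPL2 (r = 0.965), WDR45 (r = 0.961) and LOC100525572 (r = 0.961), and 41 genes reached 0.9. FBXO7 read 772 and 843 units in MRV, 914 and 991.5 in MR, and 721 and 768 in NC, the same order of group means as KCNE1 over a narrower range. For KCNE3 they were NUP37 (r = 0.987), CD40 (r = 0.981) and ACTN1 (r = 0.972). For GJA1 they were EHD4 (r = 0.993), PIKFYVE (r = 0.990) and FMR1 (r = 0.987), and for GJA5 AFF3 (r = 0.9752), RUFY3 (r = 0.974) and DLC1 (r = 0.971). EHD4 read 1756 and 1389 in MRV, 1159 and 1275 in MR, and 1532 and 1295 in NC, which is the order of the 6 arrays for GJA1 except for NC2 and MR2, whose places lie close together.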

How the data were processed

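Left atrial RNA of 6 pigs was measured on 1 array each. The values deposited by the authors are linear intensities, 1 for each array and probe set, with near-equal distributions over arrays. MAS5 and RMA are named, with no version, in the submitters' processing notes. Which of them made the intensities was not given in the sources. Groups came from the sample titles. The 124 control probe sets were left out, and of the remaining 23999, those with a mean at or above the 40th percentile (14400) were tested as log2(intensity + 16) in limma 3.58.1 (R 4.3.3; lmFit, then eBayes) over the 6 arrays together, with a mean per group, 3 residual and 2.78 prior degrees of freedom, and Benjamini-Hochberg adjustment per comparison at 0.05. The fit was tested on simulated data. A gene was represented by its probe set with the highest mean. No overlap means that every array of a group lies above every array of the other. The number of arrays limits the precision, and nothing but the count of 6 pigs says that arrays are separate animals.

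Members, lists and the rule for named genes were chosen with earlier results of these data known. The rule named all member probe sets, per list the genes with the largest non-overlapping difference each way in MR minus NC and MRV minus MR, 15 channel, connexin and transcription factor genes where measured, and the genes most correlated with each member. Alternatives were pseudocounts of 1 and 64, no filter or one at the 60th percentile, quantile or median scaling, only the groups compared, the replicate block, each array left out, each gene's probe sets averaged and, added after seeing the data, the actin ratio as a covariate.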

Additional observations from a re-analysis of the deposited data

How the results depend on the processing

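Of 165 values of the 4 genes under the alternatives, 162 kept their sign and 0 passed the threshold. The sign turned for GJA5 in MR minus NC, which ranged from -0.27 to 0.57 without 1 array and was -0.27 without MR replicate 2 and -0.015 without NC replicate 2, and for KCNE1 in MRV minus NC, which ranged from -0.055 to 0.77 and was -0.055 without MRV replicate 2. KCNE1 and KCNE3 were chosen on MR minus NC, so their part in the 162 is not read as support for their differences. KCNE3 had no value with the filter at the 60th percentile. The number of probe sets called in MR minus NC was 1, and it was 0 in 11 of 13 alternatives: a pseudocount of 1, no filter, quantile normalization, arrays centred on the median, the replicate block, only the groups compared, the actin covariate, and from 0 to 0 without each array. In MRV minus MR it was 0, and 2 with the replicate block. Same-numbered arrays had correlated deviations from their group means of 0.34 (MR and NC), 0.20 (MRV and NC) and 0.019 (MRV and MR), so the numbers were not taken to pair the animals. With the replicate block, KCNE1 was -0.85 in MRV minus MR. No list gene was called under any alternative, and 45 of 333 list medians moved by more than the spread between arrays, 15 of them to the other sign; the cause was not tested.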
